A study of Mus musculus with 10 samples.

Results

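AP-1 is a family of paired transcription factors, and the genes described here are its core members together with immediate early genes that are switched on beside them: Fos, Fosb, Fosl1 and Fosl2 (the Fos family), Jun, Junb and Jund (the Jun family), Atf3, Egr1 and Ier2. They were taken by name from the count files, through GENCODE M21, as 10 of 49671 gene IDs, and all 10 passed the filter on low counts that left 18060 genes for testing. The libraries are whole skin of mice aged 22 weeks, 1 mouse each, 5 homozygous for the Npy allele of the B6;129S4-Npytm2Rpa/J strain (NPYtet; 3 labelled female, 2 labelled male) and 5 wildtype siblings (WT; 2 labelled female, 3 labelled male). The labels name no treatment and no further allele in either group. The study compared skin RNA between these genotypes, in mice whose Npy is overexpressed and in their siblings. In whole skin, fewer cells of a type and less RNA per cell cannot be told apart.

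Fos and Jun proteins join through a leucine zipper and bind the AP-1 site in DNA, and Fos proteins need a Jun partner while Jun proteins can also pair with each other. In skin, AP-1 factors control keratinocyte differentiation, wound closure and inflammatory cytokines, and the balance between Jun family members is known to matter for inflammatory skin disease in mice. Immediate early genes need no new protein to be transcribed: growth factors, stress, wounding and also handling of tissue raise their RNA within minutes, and most of these RNAs are short-lived.

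Totals ran from 23209405 to 53357695 reads per library, and every member had at least 37 reads in every library. Npy, the altered gene, was at no more than 2.86 CPM in WT and at least 96.2 CPM in NPYtet (CPM, counts scaled to a common library size). Markers of basal keratinocytes, fixed as a list of 7 genes, all had reads and summed to between 7611 and 59630 CPM. Mitochondrial genes took 9.26% of reads in NPYtet replicate 5 and at most 3.03% elsewhere, and the ribosomal RNA locus took 4.70% there, 1.82% in WT replicate 2 and at most 0.443% elsewhere. NPYtet replicate 1 is labelled female but held 2 reads of Xist and 1513 reads of the Y-linked gene Ddx3y, and it is kept under its label here. Values without these libraries stand beside the main results for the members and lists.

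Levels can be compared between genes only per length, here as CPM per kilobase of exon (RPKM). Junb stood highest at 161 ± 142 RPKM (SD, n = 10), followed by Ier2 at 84.1 ± 52.6 and Jund at 80.7 ± 92.3 RPKM. Jun averaged 43.0 ± 13.5, Egr1 30.5 ± 16.8, Fos 26.3 ± 25.0 and Fosl2 18.4 ± 6.2 RPKM. Atf3 at 15.4 ± 14.9, Fosl1 at 13.0 ± 16.3 and Fosb at 8.20 ± 15.3 RPKM stood lowest. The ranges over the 10 libraries of each 2 neighbours in this order overlapped, so the order of neighbours is not set beyond the spread between mice. Jun, Jund and Ier2 are single-exon genes in GENCODE M21, while Fos has transcripts of 3 or 4 exons and Atf3 of 4 or 5.

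None of the 10 genes passed the test between the genotypes. The edgeR quasi-likelihood test called 0 of 10, against 0.00554% of all genes tested, which is Npy alone. At an unadjusted p under 0.05 it again took 0 of 10, against 3.59% of all genes (2.14% lower and 1.46% higher in NPYtet), and DESeq2 called 0 of the 9 for which it gave an adjusted p (none for Fosb). In 0 of 10 did the groups separate without overlap, against 0.305% of all genes. The log2 fold change (NPYtet minus WT, fitted with labelled sex) was negative in 8 of 10 members, with a median of -0.23, against 51.2% negative and a median of -0.01 over all genes tested. Without WT replicate 2 and NPYtet replicate 5, 3 of 10 were negative and the median was 0.09.

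**Figure D1:**
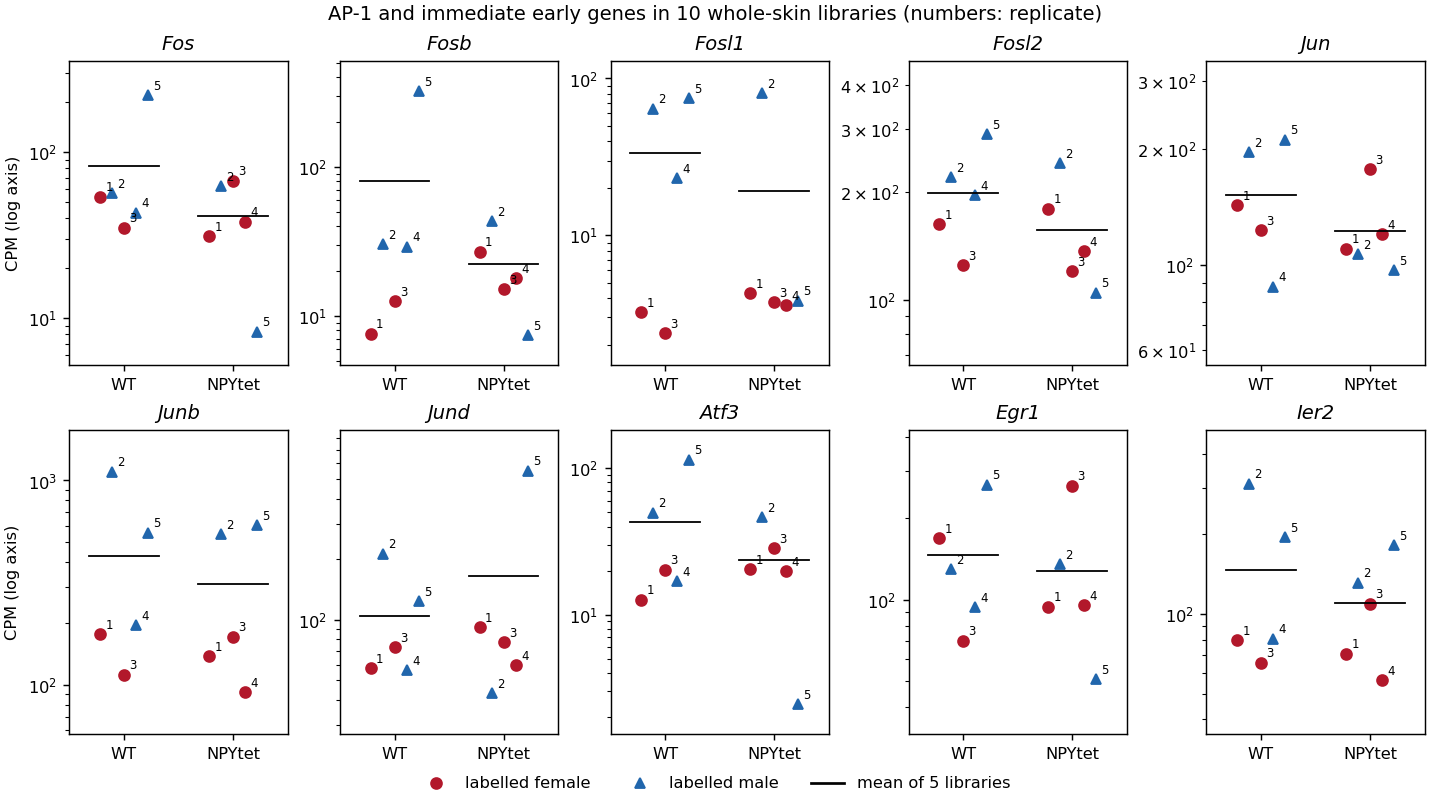
CPM on a log axis for each of the 10 genes in 5 WT and 5 NPYtet libraries; each point is 1 library with its replicate number, circles are labelled female, triangles labelled male, and the bar is the mean of 5. The genotypes overlap in every panel, while in Junb all 5 triangles lie above all 5 circles and in Fosl1 4 triangles lie far above the rest.

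The Fos family supplies the member of the AP-1 pair that cannot bind DNA without a partner. Fos itself, the prototype of the immediate early genes, was at 53.8, 56.7, 35.0, 43.2 and 221.6 CPM in WT replicates 1 to 5. In NPYtet replicates 1 to 5 it was at 31.1, 62.3, 67.3, 38.1 and 8.27 CPM. WT replicate 5 stood above and NPYtet replicate 5 below every other library, and the other 8 lay within a narrow band shared by the genotypes. The log2 fold change was -0.78 (SE 0.64, edgeR adjusted p = 0.9995), the most negative of the members, and stayed negative in every alternative fit, between -1.42 and -0.21. It was -0.21 without WT replicate 5 and -0.33 without WT replicate 2 and NPYtet replicate 5.

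Fosb, which yields long and short protein forms by splicing, was at 7.59, 30.1, 12.5, 29.2 and 321.6 CPM in WT replicates 1 to 5. NPYtet replicates 1 to 5 held 27.0, 43.4, 15.1, 17.9 and 7.41 CPM of it. A single library, WT replicate 5, was over every other one by a wide margin and set the WT mean of 80.2 ± 135 CPM against 22.2 ± 13.8 CPM in NPYtet (SD, n = 5 each). The fitted difference was -0.67 (SE 1.18, edgeR adjusted p = 0.9995), and it was 0.43 without WT replicate 5.

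Fosl1, whose protein Fra-1 is raised in migrating and wounded keratinocytes, was at 3.25, 64.1, 2.38, 23.1 and 75.2 CPM in WT replicates 1 to 5 and at 4.28, 80.7, 3.76, 3.595 and 3.84 CPM in NPYtet replicates 1 to 5. The libraries fell into 2 sets, 6 at no more than 4.28 CPM and 4 at 23.1 CPM or more, and both genotypes had libraries in each. The genotype difference was 0.05 (SE 0.60, edgeR adjusted p = 0.9995). It was -0.80 when labelled sex was left out of the fit. Fosl2, encoding Fra-2, varied far less, from 104.7 CPM (NPYtet replicate 5) to 291 CPM (WT replicate 5), with a difference of -0.22 (SE 0.31, edgeR adjusted p = 0.9995).

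Among the Jun family, Jun was at 142.7, 195.7, 123.1, 87.8 and 210.9 CPM in WT replicates 1 to 5 and at 110.0, 106.7, 176.7, 120.2 and 96.9 CPM in NPYtet replicates 1 to 5. Its values spanned 2.40-fold from lowest to highest, the narrowest of the 10 genes. The difference was -0.33 (SE 0.32, edgeR adjusted p = 0.9995) and negative in every alternative fit, from -0.47 to -0.08.

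Junb, an antagonist of Jun at some genes and a brake on skin inflammation in mice, was at 177.6, 1106, 112.6, 196.1 and 554.9 CPM in WT replicates 1 to 5. NPYtet replicates 1 to 5 were at 138.6, 546.4, 172.0, 92.1 and 605.0 CPM. In both genotypes some libraries were several-fold above the others, and the genotype difference was -0.11 (SE 0.40, edgeR adjusted p = 0.9995).

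Jund, the Jun family member usually present in resting cells, was at 57.3, 212.9, 73.2, 56.3 and 124.1 CPM in WT replicates 1 to 5 and at 91.9, 43.3, 77.5, 59.5 and 549.3 CPM in NPYtet replicates 1 to 5. It was the member with the most positive difference, 0.70 (SE 0.53, edgeR adjusted p = 0.9995). That value rests on NPYtet replicate 5: without that library it was -0.38. The 3 libraries with the most Jund were NPYtet replicate 5, WT replicate 2 and WT replicate 5, all labelled male. They also had the 3 largest shares of reads at the ribosomal RNA locus (4.70%, 1.82% and 0.443%). The last was close to the 0.441% of NPYtet replicate 1 and the 0.4255% of WT replicate 4. In these libraries Jund was at 91.9 and 56.3 CPM. NPYtet replicate 5, WT replicate 2 and WT replicate 5, in this order, held the most Junb (605.0, 1106 and 554.9 CPM) and the most Ier2 (181.7, 310.0 and 194.9 CPM). The part of the ribosomal RNA share in the levels of Jund, Junb and Ier2, or in their differences by labelled sex, was not tested.

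Atf3, a stress-induced partner of Jun proteins that often represses its targets, ran from 12.7 to 114.6 CPM in WT (median 20.4) and from 2.45 to 46.5 CPM in NPYtet (median 20.4). WT replicate 5 was highest and NPYtet replicate 5 lowest, as for Fos, and the difference was -0.41 (SE 0.78, edgeR adjusted p = 0.9995). Egr1, a zinc finger factor outside AP-1 that responds to the same kinases, ran from 70.4 to 266.6 CPM in WT (median 129.5) and from 50.7 to 264.1 CPM in NPYtet (median 95.4). Its difference was -0.24 (SE 0.48, edgeR adjusted p = 0.9995). Ier2, a nuclear protein of growth factor responses, ran from 65.6 to 310.0 CPM in WT (median 80.6) and from 56.3 to 181.7 CPM in NPYtet (median 109.3), with a difference of -0.10 (SE 0.36, edgeR adjusted p = 0.9995). For all 3 genes the ranges of the genotypes overlapped.

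Fosl1 and Junb were higher in the libraries labelled male than in those labelled female. They were the 2 of 10 members called by edgeR for labelled sex, against 2.48% of all genes tested (1.36% higher and 1.12% lower in male). The members were chosen with earlier results of these data known, so their share is no independent test. Fosl1 averaged 49.4 ± 34.0 CPM in male-labelled and 3.45 ± 0.707 CPM in female-labelled libraries (SD, n = 5 each), which is 3.85 on the log2 scale, male minus female (SE 0.65, edgeR adjusted p = 0.0108). It was high in 4 of 5 male-labelled libraries, while NPYtet replicate 5, labelled male, was at 3.84 CPM, within the 2.38 to 4.28 CPM of the female-labelled ones. Junb averaged 602 ± 325 CPM against 139 ± 37.0 CPM, a log2 difference of 2.10 (SE 0.42, edgeR adjusted p = 0.0221). All 5 male-labelled libraries were above all 5 female-labelled ones, with a small gap between 196.1 CPM in WT replicate 4 and 177.6 CPM in WT replicate 1. Junb was the only 1 of 10 members without overlap, against 8.44% of all genes. This separation holds by label only. NPYtet replicate 1, labelled female but with Ddx3y reads, was at 138.6 CPM of Junb. Counted as male, it would lie within the 92.1 to 177.6 CPM of the other female-labelled libraries, and the groups would overlap.

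NPYtet replicate 1, the library labelled female that carries Ddx3y reads, had 4.28 CPM of Fosl1 and 138.6 CPM of Junb, both at the level of the other female-labelled libraries. Without it, Fosl1 was at 3.97 (edgeR adjusted p = 0.0190) and Junb at 2.15 (edgeR adjusted p = 0.0257). Leaving it out removes a library with Ddx3y reads at the female-labelled level, so this cannot check a difference by sex as the reads give it. No fit counted it as male. Without WT replicate 2 and NPYtet replicate 5, Fosl1 was at 4.28 (edgeR adjusted p = 0.00212) and Junb at 1.71 (edgeR adjusted p = 0.0439). Fosl1 lost its call without WT replicate 3 (edgeR adjusted p = 0.0586) or NPYtet replicate 2 (edgeR adjusted p = 0.0798). Junb lost its call without WT replicate 3 (edgeR adjusted p = 0.109), without 1 of the NPYtet replicates 3 and 4 (edgeR adjusted p = 0.0579 and 0.0695), with scaling to library totals (edgeR adjusted p = 0.0519), or without all 3 libraries that stand apart (edgeR adjusted p = 0.0522). Over all alternatives Fosl1 stayed between 3.10 and 4.35 and Junb between 1.59 and 2.29.

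**Figure D2:**
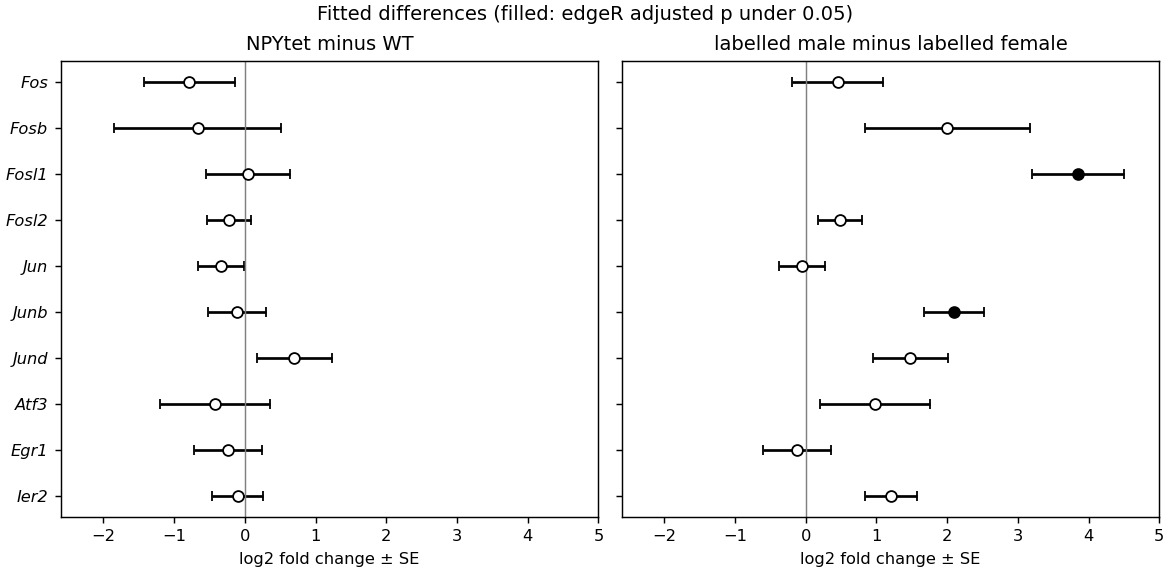
Log2 fold change with its SE for each member, NPYtet minus WT on the left and labelled male minus labelled female on the right; filled points have an edgeR adjusted p under 0.05. All 10 points on the left are open, and Fosl1 (3.85) and Junb (2.10) are the filled points on the right.

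The other 8 members were not called by labelled sex. Ier2 was 1.21 higher on the log2 scale (SE 0.37), with an edgeR adjusted p = 0.0861. Jund was 1.48 higher (SE 0.53), with an edgeR adjusted p = 0.120. DESeq2 called both. Jund was at 0.0042 without WT replicate 2 and NPYtet replicate 5, and Ier2 at 0.89. Fosb had 2.0 (SE 1.17, edgeR adjusted p = 0.313) and ran from 0.91 without WT replicate 5 to 2.87 without NPYtet replicate 5. The others were Atf3 at 0.99 (SE 0.78), Fosl2 at 0.48 (SE 0.31) and Fos at 0.45 (SE 0.64). Jun at -0.05 (SE 0.32) and Egr1 at -0.13 (SE 0.48) were nearest to no difference. At an unadjusted p under 0.05 there were 4 of 10 members, against 24.6% of all genes, and 8 had positive differences (46.2% of all genes), with a median of 1.10 against -0.07 over all genes.

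The genotype difference was not shown to depend on labelled sex for any member: 0 of 10 interaction terms passed in edgeR, against 0% of all genes tested, and 1 had an unadjusted p under 0.05, against 1.63% of all genes. That member was Fosb, with an interaction of -3.31 (SE 1.495, edgeR adjusted p = 0.9999): its male minus female difference was 3.66 (SE 1.17) in WT and 0.35 (SE 0.99) in NPYtet. It ran from -5.10 (without NPYtet replicate 2) to -1.21 (without WT replicate 5) with 1 library left out. With no filter on low counts the Fosb interaction passed (edgeR adjusted p = 0.00331). For Junb the male minus female difference was 2.09 (SE 0.66) in WT and 2.10 (SE 0.60) in NPYtet, and for Fosl1 it was 4.26 (SE 1.01) and 3.45 (SE 0.85). None of these within-genotype differences passed on its own in edgeR. Without NPYtet replicate 1 the differences in NPYtet were 0.67 (SE 1.20) for Fosb, 2.15 (SE 0.73) for Junb and 3.57 (SE 1.06) for Fosl1.

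Most members varied more between mice of the same genotype than other genes of like abundance. This spread includes the difference between the labelled sexes, which was 3.85 for Fosl1 and 2.10 for Junb on the log2 scale. It also includes the libraries that stand apart, such as NPYtet replicate 5, and was not computed without them. The within-genotype SD of log2 CPM (8 degrees of freedom over 10 libraries) was 2.15 for Fosl1, 1.61 for Fosb, 1.47 for Atf3, 1.29 for Junb, 1.17 for Jund and 1.13 for Fos, against a median of 0.66 over all genes tested. Among genes with a mean CPM within 2-fold of their own, these SDs lay at percentile 98.9 for Fosl1, 98.5 for Fosb, 97.8 for Atf3, 95.3 for Junb, 96.0 for Jund and 96.2 for Fos. Ier2 (0.84) and Egr1 (0.81) lay at percentiles 85.2 and 82.5. Jun (0.44) and Fosl2 (0.47) were at percentiles 25.1 and 30.9, less variable than most genes of their level.

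**Figure D3:**
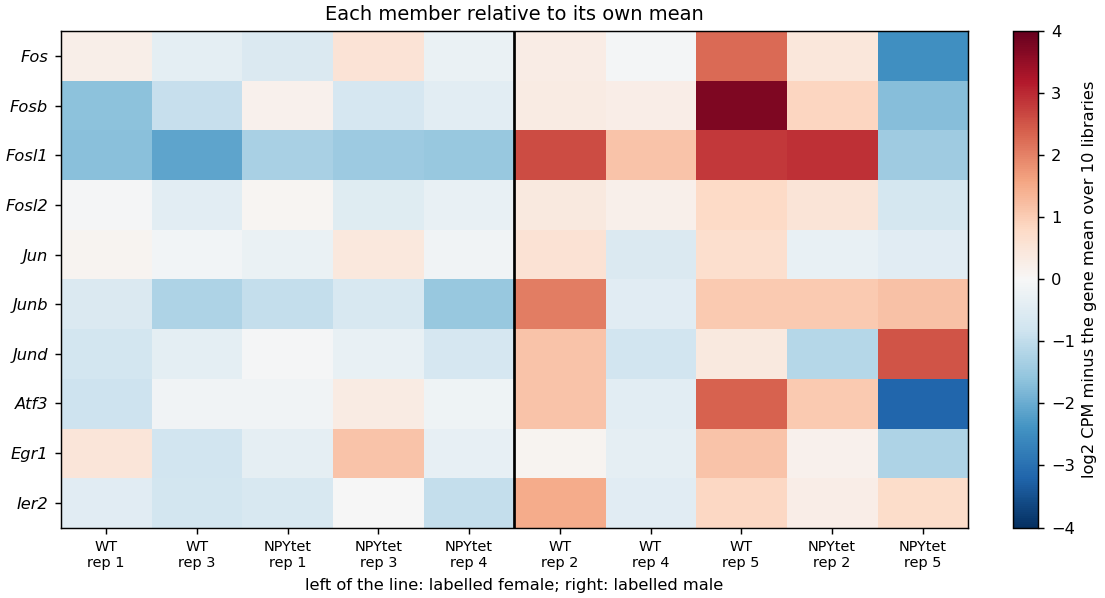
Log2 CPM of each member minus its mean over 10 libraries, in colour, with female-labelled libraries left of the line and male-labelled ones right of it. WT replicate 5 is raised in all 10 rows, and NPYtet replicate 5 is low in Fos, Fosb, Fosl1 and Atf3 but high in Junb, Jund and Ier2.

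Fos and Egr1 varied together from mouse to mouse by both measures used, while Fos and Atf3 did so by r only. Over the 10 libraries, the log2 CPM of Egr1 and Fos had Pearson's r = 0.872 (permutation adjusted p = 0.00126) and Spearman's rho = 0.903 (permutation adjusted p = 0.00747). For Atf3 and Fos r was 0.923 (permutation adjusted p = 0.00733) and rho 0.709 (permutation adjusted p = 0.126). Such values are not particular to the members: Emc4, Dnajb12 and Nt5c3b had r of 0.940, 0.931 and 0.931 with Fos. The share of all genes at such an r was not counted. Fosb, Fosl2 and Jun passed by r as well, at 0.771, 0.731 and 0.696 (permutation adjusted p = 0.0446, 0.0280 and 0.0324), but not by rho, at 0.612, 0.564 and 0.624 (permutation adjusted p = 0.151, 0.173 and 0.151). All p-values are two-sided and adjusted over the 9 relations with Fos, and both genes of a relation share the library and its scaling.

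Junb, Ier2 and Jund did not pass in their relation with Fos over the 10 libraries. Their r was 0.120, 0.175 and -0.464 (permutation adjusted p = 0.742, 0.713 and 0.244), and their rho 0.297, 0.491 and -0.176 (permutation adjusted p = 0.461, 0.229 and 0.630). Fosl1 fell into separate sets of libraries, so no pooled r with Fos is given for it. Without WT replicate 5 and NPYtet replicate 5, the 2 libraries farthest from the median of Fos, Egr1 kept r = 0.845 (permutation adjusted p = 0.0594), while Atf3 was at 0.506, Jun at 0.520, Fosl2 at 0.225 and Fosb at 0.062, all lower than over 10 libraries. None of the relations passed after adjustment in the remaining 8. In the same 8 libraries Junb was at 0.606 and Ier2 at 0.638 (permutation adjusted p = 0.339 and 0.310). Without WT replicate 2 and NPYtet replicate 5, Junb passed at r = 0.777 (permutation adjusted p = 0.0335) and Ier2 at 0.917 (permutation adjusted p = 0.00670). After centring on genotype means r was 0.895 for Egr1 and 0.919 for Atf3. Within a genotype or a labelled sex there are 5 libraries, too few for a correlation.

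**Figure D4:**
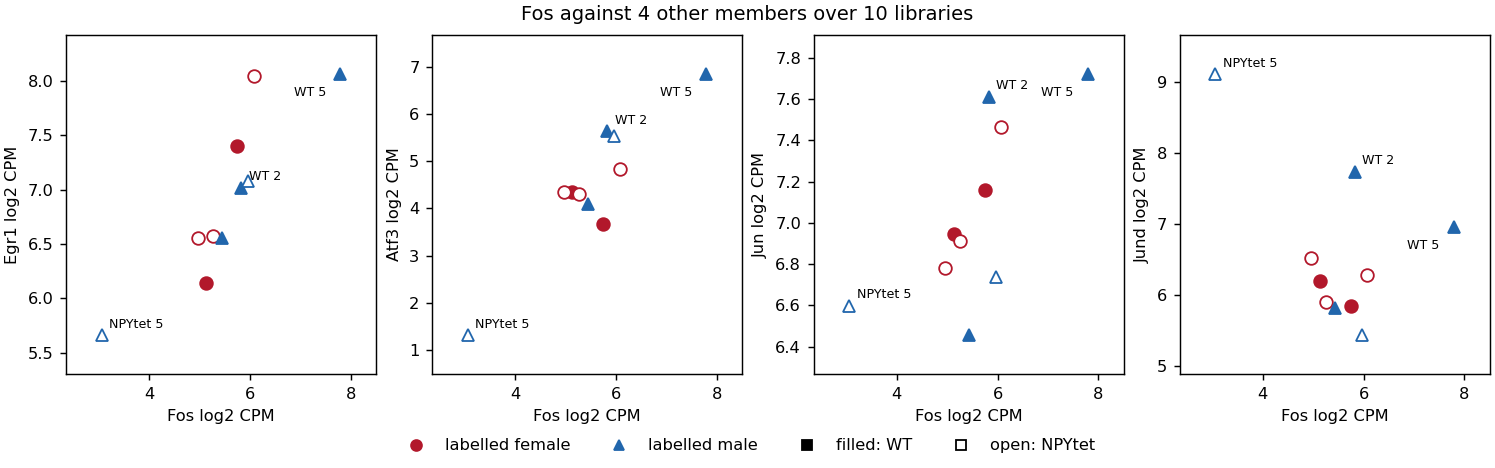
Log2 CPM of Fos (x axis) against Egr1, Atf3, Jun and Jund (y axes) in 10 libraries, with circles labelled female, triangles labelled male, filled WT and open NPYtet. Egr1 rises with Fos across all libraries (r = 0.872), the Atf3 relation spans mainly the extremes WT replicate 5 and NPYtet replicate 5, and Jund is highest where Fos is lowest.

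The proximal promoters of 4 members are shown: Fos, Atf3 and Jun from those that passed by r with it, and Junb, which did not. They are the 150 bases before the RefSeq start (GRCm38.p6), 5′ to 3′ on the gene's strand; capitals mark every match, on either strand, to TGACGT (the core of the cAMP response element), TGACTCA (the consensus AP-1 site), TGACATCA (a variant of it known from Jun), CCAAT (the site of the factor NF-Y), TATAAA (the TATA box) or the CArG box bound by serum response factor.
Fos, chr12:85473740-85473889, + strand: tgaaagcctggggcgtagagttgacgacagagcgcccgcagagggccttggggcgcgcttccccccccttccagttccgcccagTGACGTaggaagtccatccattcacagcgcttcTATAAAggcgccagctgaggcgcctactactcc
Atf3, chr1:191183334-191183483, - strand: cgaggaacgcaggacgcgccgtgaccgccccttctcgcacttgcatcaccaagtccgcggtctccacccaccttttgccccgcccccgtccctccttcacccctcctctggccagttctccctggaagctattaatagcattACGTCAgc
Jun, chr4:95052223-95052372, - strand: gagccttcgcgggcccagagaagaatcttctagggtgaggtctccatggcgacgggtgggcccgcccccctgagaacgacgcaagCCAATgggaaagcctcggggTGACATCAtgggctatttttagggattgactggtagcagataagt
Junb, chr8:84978749-84978898, - strand: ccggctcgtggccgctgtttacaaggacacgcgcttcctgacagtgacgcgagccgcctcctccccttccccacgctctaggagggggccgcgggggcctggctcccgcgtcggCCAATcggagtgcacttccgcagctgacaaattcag

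Fos and Atf3 each held a match to TGACGT, at -66 to -61 and, on the opposite strand, at -8 to -3 from the start. In the same window of 250 bases before the start, 6.56% of 27025 mouse promoters hold one. Jun held TGACATCA at -45 to -38 (3.02% of promoters) and CCAAT at -65 to -61, and Junb held CCAAT at -36 to -32 (34.5% of promoters). TGACTCA (4.43% of promoters) and the CArG box (1.40%) were in none of the 7 members' windows, and TATAAA (13.0%) was in that of Fos. Bases farther than 250 before the start were not searched, so sites upstream of the window are not covered. Fosl1, Egr1 and Ier2 had no promoter sequence to search. Fosb and Fosl2, which also passed by r with Fos but are not shown, held none of the 6 sequences searched. Nor did Jund, whose RefSeq start lies at -1210 from its GENCODE start. Of the 10 members, 7 matched an entry; the start used for Atf3 lies 34706 bases downstream of the gene's first GENCODE start, at a later promoter. These are matches of letters, and no binding was measured.

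The genes most like Fos over the 10 libraries, among 15143 other genes with a mean CPM of at least 1, were Emc4 (r = 0.940), Dnajb12 (0.931), Nt5c3b (0.931), Nr4a1 (0.930) and 2410004B18Rik (0.928). Of these, Nr4a1, a nuclear receptor and itself an immediate early gene, ran from 11.9 CPM in NPYtet replicate 5 to 168 CPM in WT replicate 5, while Emc4 ran only from 27.1 to 61.9 CPM in the same libraries. Those most like Jund were Dpm3 (r = 0.996), Ndufa7 (0.991), 2200002D01Rik (0.990), CAAA01147332.1 (0.989) and Rpl39-ps (0.988). Ndufa7, a subunit of respiratory complex I, was at 215.8 CPM in NPYtet replicate 5 and 133.7 CPM in WT replicate 2, and at most 95.8 CPM elsewhere, the same order as Jund.

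Those most like Fosl1 by the same measure were Has1, Urah, C330022C24Rik, Teddm3 and Arc; the 2 sets of libraries fix this likeness, so no r is given. Has1 makes hyaluronan, and Arc is an immediate early gene best known from neurons. Arc was at 108.2, 18.7, 84.1 and 89.7 CPM in the 4 libraries high in Fosl1 (WT replicates 2, 4 and 5 and NPYtet replicate 2) and at 2.08 to 5.96 CPM in the other 6.

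Among other immediate early genes none was called by genotype either. Of 40 in the list, 39 were tested. Differences were negative in 25 and positive in 14 (51.2% of all genes were negative), with a median of -0.14 against -0.01 over all genes. In this list 0 were called by edgeR and 0 had an unadjusted p under 0.05 (3.59% of all genes). The 3 with the smallest p were Dusp2, a phosphatase that switches off MAP kinases, at -1.43 (SE 0.66), Ptgs2, the inducible cyclooxygenase, at 0.80 (SE 0.44) and Sgk1, a kinase, at -0.52 (SE 0.30), each with an edgeR adjusted p = 0.9995. By labelled sex 8 of 39 were called, against 2.48% of all genes tested, and all 8 were higher in male (1.36% of all genes). This list was chosen with earlier results of these data known, so its share is no independent test. Among the 8 were Arc at 4.10 (SE 0.67, edgeR adjusted p = 0.0103) and Socs3, the feedback inhibitor of STAT3, at 2.66 (SE 0.57, edgeR adjusted p = 0.0287). Cebpd, Ier5l, Cebpb, Phlda1, Csrnp1 and Ier3 were the others, from 1.57 to 2.37. Socs3 was at 549.5, 69.5, 223.2, 421.6 and 56.0 CPM in the male-labelled libraries (WT replicates 2, 4 and 5, NPYtet replicates 2 and 5) and at 35.2 to 44.1 CPM in the female-labelled ones. The 44.1 CPM was in NPYtet replicate 1, labelled female but with Ddx3y reads. The count of genes called by labelled sex was 2 without WT replicate 2, 0 without WT replicate 3, 14 without WT replicate 4, 5 without WT replicate 5, 4 without NPYtet replicate 2, 1 without NPYtet replicate 3 and 1 without NPYtet replicate 4. It was 8 without NPYtet replicate 1 (Arc at 4.19, Socs3 at 2.73), 15 in DESeq2 and 10 without the 3 libraries that stand apart. Egr2, Egr3, Btg2 and Dusp1 were near no difference, at -0.08, 0.11, 0.12 and 0.13.

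Among textbook targets of AP-1 in skin, none was called by genotype and most were called by labelled sex. Of 22 in the list, 21 were tested, and by genotype 0 were called by edgeR. At an unadjusted p under 0.05 there was 1, against 3.59% of all genes: Mmp3, stromelysin, at 1.25 (SE 0.56, edgeR adjusted p = 0.9995). The next by p were Ccnd1, cyclin D1, at -0.76 (SE 0.36) and Lor, loricrin, at 0.68 (SE 0.45). By labelled sex 12 of 21 were called, against 2.48% of all genes tested. The list was chosen with earlier results of these data known, so its share is no independent test against all genes. All 12 were higher in male (1.36% of all genes), and the list median was 2.34, against -0.07 over all genes. Krt16 and Krt6a, keratins of wounded epidermis, were at 6.46 (SE 0.88, edgeR adjusted p = 0.00470) and at 4.66, with an SE of 0.68 and an edgeR adjusted p = 0.00536. Mmp13, a collagenase, was at 6.02, Il6 at 4.49, Timp1 at 3.69, Hbegf, a keratinocyte growth factor, at 2.85 and Ccl2 at 2.56.

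Krt16 was at 9138, 821, 3330, 4211 and 419 CPM in the male-labelled libraries, in the order given for Socs3, and at 18.2 to 77.6 CPM in the female-labelled ones. The 77.6 CPM was in NPYtet replicate 1, labelled female but with Ddx3y reads. Ivl, involucrin, a marker of differentiation, was at -1.90 and not called (edgeR adjusted p = 0.126). Leaving out single libraries gave counts of 8 to 14, and without the 3 libraries that stand apart it was 13. Without NPYtet replicate 1 it was 14, with Krt16 at 6.99, Krt6a at 4.81 and Mmp13 at 6.17, and Ivl at -2.11 was called as lower (edgeR adjusted p = 0.0351). S100a8 and S100a9, both called in this list, are also neutrophil markers. Of 7 neutrophil markers 5 were tested, all 5 higher in male (46.2% of all genes) and 4 of them called (2.48% of all genes). Their summed level was 81.9 to 531 CPM in male-labelled and 7.03 to 11.7 CPM in female-labelled libraries. The 11.7 CPM was in NPYtet replicate 1, labelled female but with Ddx3y reads, so this separation too is by label only. The neutrophil list was also chosen with earlier results of these data known. Ly6g and Ngp, 2 defining neutrophil genes, had 0 reads in 6 libraries each and at most 14 and 3 reads. Growing hair follicle markers were all 11 positive, male minus female (median 3.72, 0 called), and of 7 general immune cell markers, some of which neutrophils share, 1 was higher and 6 were lower (median -0.85, 1 called, lower). Without NPYtet replicate 1, the medians of the neutrophil, hair follicle and immune lists were 5.29, 2.73 and -0.82, with 4, 0 and 1 called. The part of other cells in the differences of Fosl1, Junb and these targets was not tested.

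**Figure D5:**
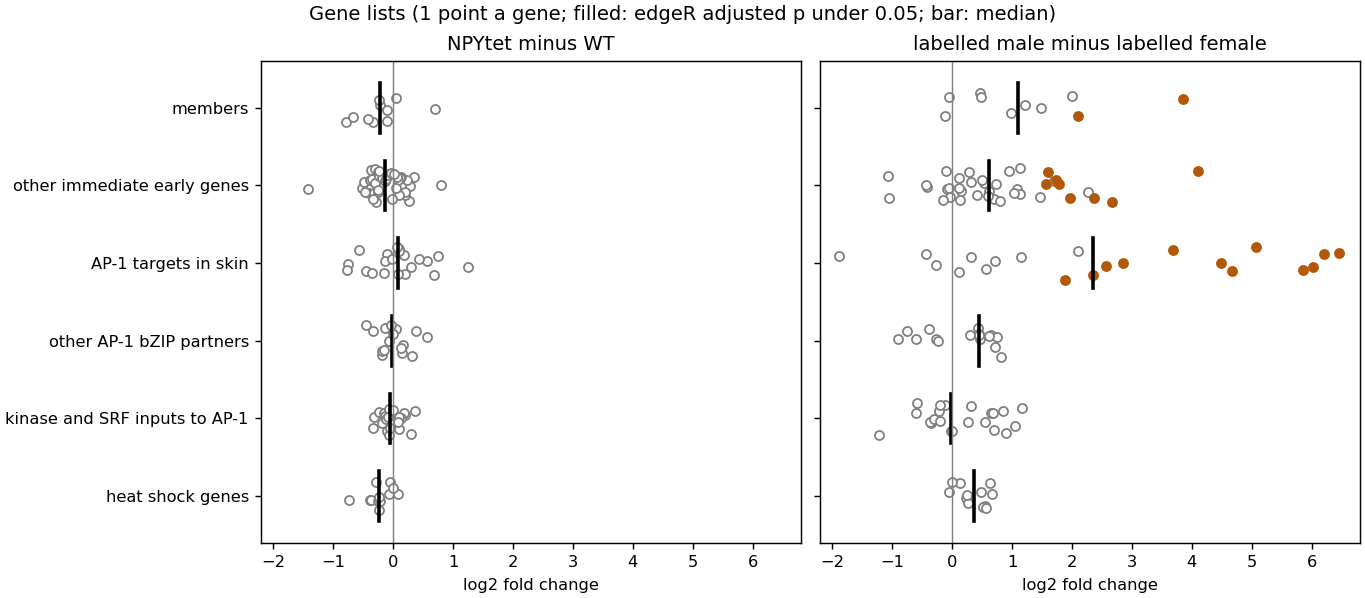
Log2 fold changes of the tested genes of 6 lists, 1 point a gene, by genotype (left) and by labelled sex (right); filled points have an edgeR adjusted p under 0.05 and bars are medians. All points on the left are open, and the filled points on the right are 2 members, 8 other immediate early genes and 12 AP-1 targets, each of them positive.

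Among partners and inputs of AP-1 and heat shock genes, edgeR called none by genotype or by labelled sex with all 10 libraries. Of 16 other bZIP factors tested, 9 were negative by genotype (median -0.02); Batf3 was at 0.57 (SE 0.40) and Crem at 0.37 (SE 0.30). Of 22 tested kinases and serum response factors, 13 were negative (median -0.06), led by Rps6ka1 at -0.33 (SE 0.34), Mrtfa at -0.32 (SE 0.34) and Mapk8 at 0.36 (SE 0.40). Of 12 heat shock genes, which rise with protein stress, 11 were negative (median -0.24), led by Hsph1 at -0.75 (SE 0.54), Hspa8 at -0.40 (SE 0.40) and Dnajb1 at -0.29 (SE 0.30). Over all genes tested 51.2% were negative by genotype, with a median of -0.01. At an unadjusted p under 0.05 none of these 3 lists had a gene by genotype in edgeR, against 3.59% of all genes. By labelled sex their medians were 0.44, -0.02 and 0.37, and 4 of 16, 5 of 22 and 1 of 12 genes had an unadjusted p under 0.05, against 24.6% of all genes. DESeq2 called 1, 2 and 0 of them by labelled sex, and edgeR without WT replicate 4 called 2, 5 and 0.

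Growing hair follicle markers had negative genotype differences in 11 of 11 genes (median -4.36), against 51.2% of all genes tested. EdgeR called 0, and 3 were lower at an unadjusted p under 0.05, against 2.14% of all genes. These markers were measured in the same mice, so they are not separate results. Their summed level ran from 279.8 to 23460 CPM in WT and from 24.6 to 10610 CPM in NPYtet. With their score as a covariate the edgeR fit still called 0 of 10 members. Some members share sequence with a gene on the opposite strand: Junb overlaps Prdx2, Fosl1 overlaps Ccdc85b and Jun overlaps the antisense gene Junos, and reads of such pairs cannot be told apart unless strand was used in counting; the sources used here do not give the strand setting. By labelled sex Prdx2 was at 0.64 (SE 0.30, edgeR adjusted p = 0.205) and Ccdc85b at 1.59 (SE 0.49, edgeR adjusted p = 0.0886).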

How the data were processed

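Whole-skin poly(A) RNA was sequenced in 10 libraries. The deposited files hold raw read counts, 1 value for each Ensembl gene ID. The submitters' processing notes name STAR 2.5.2, Trimmomatic 0.36, DESeq2 1.30.1 and mm10; no source used here gives the strand setting or the annotation release. Of 49671 IDs, 49412 matched GENCODE M21, and the others held 0.0189% of reads. No pair of libraries of 1 group agreed within sampling noise.

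Counts were fitted in edgeR 4.0.16 (R 4.3.3; filterByExpr with minimum count 10 and total 15, TMM scaling, robust quasi-likelihood test of labelled sex and genotype, and of their product), with Benjamini-Hochberg adjustment over 18060 genes and a threshold of 0.05. The fit was tested on simulated counts. CPM uses the scaled library size and log2 CPM a prior count of 2. The SE is the log2 fold change divided by the root of its F statistic. Correlations used 100000 permutations. A gene with 0 reads allows up to 3, counting error only. The edgeR p-values set a difference against the spread between these mice. The permutation p-values come from shuffling all libraries freely, without regard to genotype or labelled sex.

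Members and lists were chosen with earlier results of these data known. Named genes are the members, the 3 smallest genotype p of each list, and the 5 genes most like Fos, Jund and Fosl1; those named for sex were chosen after their values were seen, as was leaving out the 3 libraries together. Some genes the rule names are not reported here. Sequences are from RefSeq (GRCm38.p6). Alternatives were DESeq2 1.42.0, other scaling, filters and covariates, a replicate block and left-out libraries.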

Additional observations from a re-analysis of the deposited data

Results flagged for a closer look

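In 4 of 20 sets of 5 libraries (10 members in 2 genotypes), 1 library stood apart by Dixon's test at the 95% level on CPM. For normally spread values chance alone does this in about 1 set in 20. CPM are skewed towards high values, so that rate need not hold here, and the test was not run on log2 CPM. Fos at 221.6 CPM and Fosb at 321.6 CPM in WT replicate 5 stood above the other WT libraries (35.0 to 56.7 CPM and 7.59 to 30.1 CPM). Fosl1 at 80.7 CPM in NPYtet replicate 2 stood above the other NPYtet libraries (3.595 to 4.28 CPM). Jund at 549.3 CPM in NPYtet replicate 5 stood above the other NPYtet libraries (43.3 to 91.9 CPM). The members are measured in the same mice, so these sets are not separate.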

How the results depend on the processing

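No alternative called a member by genotype. Genes called by genotype numbered 1 in most fits, 35 in DESeq2, 409 with no filter on low counts, 1 to 8 with each library left out and 0 without the 3 libraries that stand apart. Genes called by labelled sex numbered 448, but 2316 in DESeq2, 2380 with no filter, 217 with library totals, 949 without those 3 and 58 to 2725 with each library left out; members called were 2, but 4, 5, 1, 1 and 0 to 3. Library totals moved the median sex difference of all genes from -0.07 to -0.46 and the share of calls higher in male from 54.9% to 29%. Interaction calls were 0, but 3 in DESeq2, 217 with no filter (1 member, Fosb) and 0 to 108 with each library left out. Relations with Fos past the threshold were 5, but 3 after centring on genotype means, 6 after centring on labelled sex means (chosen after seeing the data), 0 without its 2 farthest libraries and 1 to 5 with each library left out. The cause was not tested.

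Genotype differences changed sign without WT replicate 2 and NPYtet replicate 5 for Fosb (0.10), Fosl2 (0.0293), Junb (0.15), Jund (-0.18), Atf3 (0.16), Egr1 (0.10) and Ier2 (0.0734), and without NPYtet replicate 1 as well for Junb (0.16), Jund (-0.34), Atf3 (0.16), Egr1 (0.22) and Ier2 (0.10). With the hair follicle score they did so for Fosl1 (-0.66), Junb (0.15) and Ier2 (0.0244). Fosl1 was at -0.80 without the sex term, -0.96 with a replicate block and -0.42 with block and sex. Replicate numbers do not pair the mice: same-numbered libraries correlated at -0.256 to 0.644 and 0 of 5 WT libraries matched their own number best; the block changed no call of a member.

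With each library left out, genotype differences ran from -1.39 to 0.43 for Fosb, -0.72 to 0.53 for Fosl1, -0.41 to 0.0456 for Fosl2, -0.30 to 0.21 for Junb, -0.38 to 0.98 for Jund, -0.78 to 0.18 for Atf3, -0.59 to 0.13 for Egr1 and -0.26 to 0.14 for Ier2. Sex differences ran from -0.12 to 1.02 for Fos, -0.19 to 0.11 for Jun and -0.46 to 0.27 for Egr1; Jun was at 0.0152 in DESeq2 and with its scaling, and at 0.0007 without WT replicate 2 and NPYtet replicate 5, where Egr1 was at 0.33 (0.24 without all 3). Interactions ran from -4.29 to 0.0868 for Fosl1, -0.42 to 0.72 for Junb, -1.85 to 1.83 for Jund and -0.81 to 0.0569 for Ier2. Junb was at -0.0394 in DESeq2 and with its scaling, Fosl1 at 0.23 and Jund at -1.30 without the pair, and Fosl1 at 0.36, Fosl2 at 0.18 and Jund at -1.10 without all 3. The r with Fos ran from -0.124 to 0.584 for Junb, -0.748 to 0.320 for Jund and -0.100 to 0.637 for Ier2; Jund was at 0.488 without the pair and 0.012 without the 2 farthest.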
